A study of Canis lupus familiaris with 22 samples.

Results

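The genes described are the NOTCH receptors NOTCH1, NOTCH2, NOTCH3 and NOTCH4, the ligands JAG1, JAG2 and DLL4, and the targets HES1, HEY1 and HEYL. They were chosen by name, through the probe sets that the annotation of the array assigns to 1 of these genes and to no other. Such probe sets were found for 9 of the 10 genes, 11 probe sets in all, of 15115 genes and 42924 probe sets on the array. HES1 was not analysed here. JAG1 had 3 probe sets and each of the other genes had 1.

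The study compared naturally occurring invasive urothelial carcinoma (iUC) with normal bladder in pet dogs. The iUC group held 18 tumours of high grade, collected fresh by cystoscopy before any therapy. The normal group held 4 bladders of healthy dogs without tumours, matched for age, and the labels do not say which layers of the bladder wall were taken. Total RNA of each sample was hybridized to 1 Affymetrix Canine 2.0 array, on which groups of short oligonucleotides, called probe sets, each measure a transcript.

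NOTCH receptors sit in the cell membrane and are activated by ligands on a neighbouring cell. Binding lets a metalloprotease and then the gamma-secretase complex cut the receptor, and the freed intracellular part enters the nucleus. There it joins the DNA-binding protein RBPJ and a Mastermind protein and switches on HES and HEY genes, which encode repressors of transcription. In the bladder the pathway is known from several cell types. NOTCH1 and the JAG ligands are known from the urothelium and other epithelia, DLL4 and NOTCH4 from endothelium, and NOTCH3 and HEYL from smooth muscle and pericytes. Both loss and gain of NOTCH signalling have been linked to human bladder cancer.

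Each deposited value is a log2 value from which the authors had subtracted the median of the probe set over the 22 arrays. A value of 0 is therefore the middle of all samples, and no value gives an expression level. For that reason no gene was compared with another by level and no filter on low signal was applied. Differences are iUC minus normal on the log2 scale with their standard error (SE), from limma across all genes with Benjamini-Hochberg adjustment. A gene is said to have risen or fallen where its adjusted p was 0.05 or below and its change 2-fold or more, which is a difference of 1 on the log2 scale.

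Several arrays stood apart, and these arrays touch most of the results. The iUC arrays fell into 7 with a mean over all probe sets below 0, from -0.100 to -0.0681, and 11 with a mean above 0, from 0.070 to 0.090. The study itself divided its tumours by clustering into groups of the same sizes. The labels do not say which sample is in which group, so whether those groups are these sets of arrays was not tested. The array also carries 17 control probe sets named Tag, made for artificial sequences. Their mean lay between 0.277 and 0.460 in the 7 iUC arrays, between -0.128 and 0.131 in the 11, and between -0.215 and -0.0768 in normal bladder. All 17 were higher on average in iUC than in normal bladder, and their mean differed by 0.30 (two-sided exact permutation test over 7315 splits, p = 0.0111). Normal replicate 1 is the only normal sample whose label has the same ending as the labels of all iUC samples, and it is unlike the other normal samples in several of the genes below. Normal replicates 3 and 4 correlated at 0.934 over probe sets, against 0.426 to 0.761 for the other normal pairs. The part of these features in the results was not tested, except where a value with and without them is given.

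None of the 9 genes rose or fell (0 of 9, beside 12.3% of all genes). At an unadjusted p of 0.05 limma counted 7 of the 9 as higher, beside 27.0% of all genes, and a plain unpaired t-test counted 7, beside 27.2%. All 9 differences were above 0, as were those of 56.7% of all genes. The median difference of the 9 was 0.37, beside 0.08 for all genes. Past the adjusted p alone, with no demand on fold, 6 of 9 were higher in iUC, namely NOTCH1, NOTCH2, NOTCH4, JAG2, DLL4 and HEYL, beside 18.2% of all genes. That count fell to 2 without normal replicate 2 or 3 (NOTCH1 and HEYL each time) and to 2 without replicate 4 (DLL4 and HEYL). The share of all genes past the adjusted p was not counted in those fits. Of all genes 1823, 1313 and 1265 rose or fell without replicate 2, 3 and 4, in place of 1862. It was 8 with scaling to the 75th percentile (beside 36.7% of all genes), with array weights (33.3%) and without the 11 iUC arrays of higher mean (35.0%). JAG1 passed in all 3 of these, HEY1 in the scaling and array weights, and NOTCH3 without the 11 arrays. The values of most of the 9 genes moved within a narrow range. The SD over the 22 arrays was 0.13 for HEY1, 0.23 each for NOTCH3, NOTCH4 and JAG2, 0.29 for NOTCH2, 0.31 for JAG1, 0.39 for NOTCH1, 0.43 for HEYL and 0.55 for DLL4, beside 0.39 for the median gene. The 17 Tag control probe sets had SDs of 0.11 to 0.56 with a median of 0.20, and all 9 genes lay within that range. So did the median gene. By SD the 9 ran from percentile 7.04 of all genes (HEY1) to percentile 68.0 (DLL4).

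**Figure D1:**
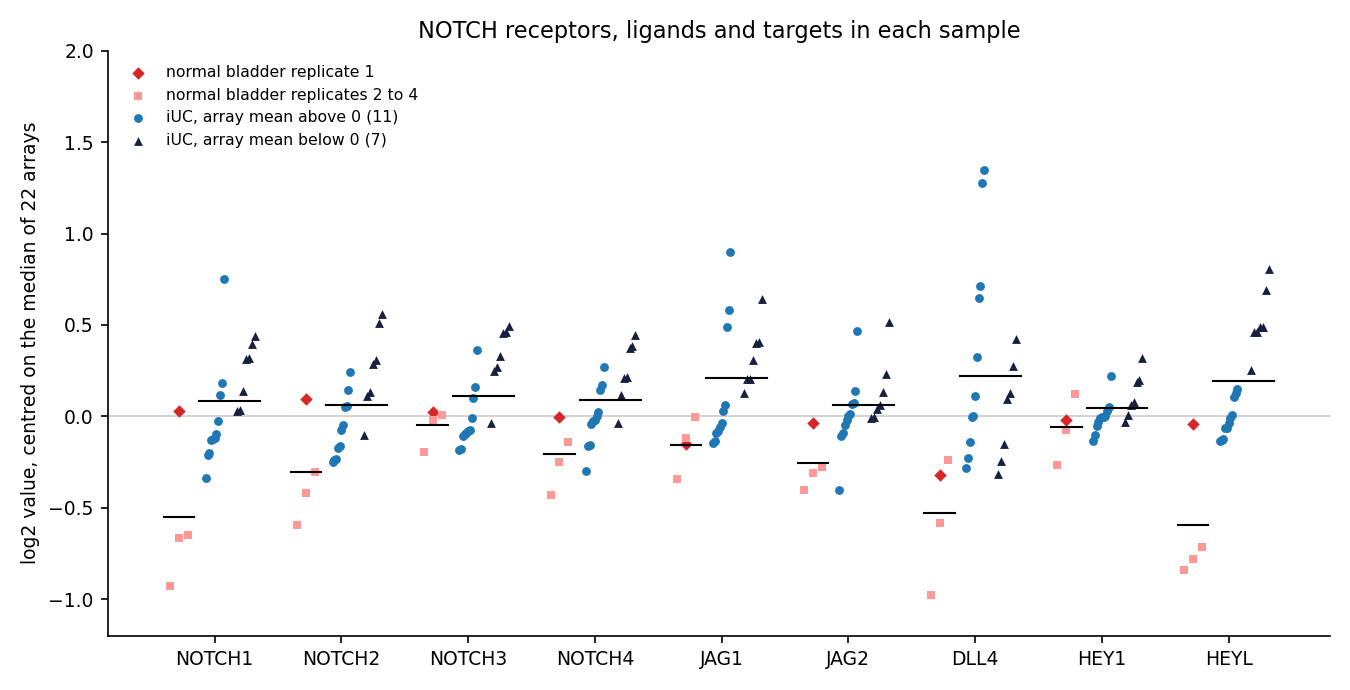
Centred log2 value of the 9 genes in each of 22 samples, with normal replicate 1, normal replicates 2 to 4 and the 2 sets of iUC arrays marked apart and the mean of each group as a line. The normal samples overlap the iUC samples in every gene, and normal replicate 1 lies within the iUC range in every gene except JAG1 and DLL4, where it is just below the lowest iUC sample.

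Among the receptors, NOTCH1 differed most. NOTCH1 is the receptor best known for steering differentiation in stratified epithelia. Its values in normal replicates 1 to 4 were 0.03, -0.67, -0.65 and -0.93, and in iUC they ran from -0.34 over a median of 0.03 to 0.75. All 18 iUC samples lay above normal replicates 2 to 4, which was so for 12.8% of all genes, and 10 of 18 lay above replicate 1 as well. The difference was 0.64 (SE 0.16, 1.55-fold, adjusted p = 0.00566). The value above the others in iUC, 0.75, belonged to the 11 arrays of higher mean.

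NOTCH2 is a close relative of NOTCH1 with broad expression. It stands in a gene set that the study picked as enriched in these same samples, so its direction is not independent evidence. NOTCH2 read 0.10, -0.31, -0.59 and -0.42 in normal replicates 1 to 4, and from -0.25 over 0.05 to 0.56 in iUC. Again every iUC sample lay above normal replicates 2 to 4, and 8 of 18 lay above all normal samples. The difference was 0.37 (SE 0.14, adjusted p = 0.0466).

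NOTCH3 and NOTCH4 are the receptors tied to vessel walls, NOTCH3 in smooth muscle and pericytes and NOTCH4 in endothelium. NOTCH3 read 0.02, -0.20, -0.02 and 0.01 in normal replicates 1 to 4, and from -0.19 over 0.05 to 0.49 in iUC. Its difference of 0.16 did not pass (SE 0.12, 95% interval -0.10 to 0.42, adjusted p = 0.308), and 9 of 18 iUC samples lay above all normal samples. NOTCH4 read -0.00, -0.43, -0.14 and -0.25 in normal replicates 1 to 4, and from -0.30 over 0.07 to 0.45 in iUC, a difference of 0.30 (SE 0.11, adjusted p = 0.0480). The adjusted p of NOTCH4 and that of NOTCH2 lay just inside the threshold. The interval of NOTCH3 excludes a change of 2-fold in either direction on the deposited scale.

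The ligands are transmembrane proteins of the signalling cell. DLL4 is the ligand of endothelial tip cells in sprouting vessels, and it spread the most of the 9 genes. Its values in normal replicates 1 to 4 were -0.32, -0.98, -0.58 and -0.24, and in iUC they ran from -0.31 over 0.10 to 1.35. The difference was 0.75 (SE 0.26, 1.68-fold, adjusted p = 0.0272), and 15 of 18 iUC samples lay above all normal samples. The top of the range was made by a few tumours. DLL4 read 1.35 in iUC replicate 9, 1.28 in replicate 12, 0.71 in replicate 17 and 0.65 in replicate 2, all of them among the 11 arrays of higher mean, and no other iUC sample exceeded the 0.42 that was the highest value of the 7. The mean of DLL4 was lower in the 7 arrays than in the 11, with a difference of -0.31, while the other 8 genes had the higher mean in the 7, as had 49.1% of all genes.

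JAG2, a ligand of epithelia and endothelium, read -0.04, -0.40, -0.28 and -0.31 in normal replicates 1 to 4. In iUC it ran from -0.40 over 0.03 to 0.51, a difference of 0.32 (SE 0.11, adjusted p = 0.0349). Of the 18 iUC samples 14 lay above all normal samples, and the lowest iUC sample was level with the lowest normal sample.

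JAG1, the ligand made by many epithelial and mesenchymal cells, depended on the probe set. The mean of its 3 probe sets read -0.15, -0.00, -0.34 and -0.12 in normal replicates 1 to 4 and from -0.15 over 0.17 to 0.90 in iUC, a difference of 0.37 that did not pass (SE 0.16, adjusted p = 0.0699). The median of the 3 in place of their mean gave 0.07 (adjusted p = 0.576). The probe set CfaAffx.9396.1.S1_at was the only 1 of the 11 that rose (1 of 11, beside 3.9% of all probe sets that rose and 14.6% that rose or fell). It read -0.12, -1.10, -1.35 and -0.81 in normal replicates 1 to 4, and from -0.52 over 0.06 to 1.57 in iUC, a difference of 1.24 (SE 0.34, adjusted p = 0.00786).

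The other JAG1 probe sets did not share this rise. CfaAffx.9398.1.S1_s_at has a suffix that marks probes that can match several transcripts. The only probe sets of NOTCH1, NOTCH2, NOTCH3 and HEY1 carry the same suffix. CfaAffx.9398.1.S1_s_at read -0.09, 0.17, -0.03 and -0.25 in normal replicates 1 to 4 and from -0.19 over 0.01 to 0.36 in iUC. Its difference was 0.06 (adjusted p = 0.567). Cfa.19699.1.S1_at read -0.26, 0.92, 0.36 and 0.70 in normal replicates 1 to 4 and from -0.60 over -0.0066 to 1.9 in iUC, with a difference of -0.20 (SE 0.38, adjusted p = 0.689). The rise of CfaAffx.9396.1.S1_at went with the 2 sets of iUC arrays. It lay between 0.96 and 1.57 in the 7 arrays and between -0.52 and 0.44 in the 11, a split in that direction shown by 14.8% of all probe sets. Without the 7 arrays the difference was 0.77 (adjusted p = 0.00662), below 2-fold. Against normal replicate 1, with the label ending as a block, it was 0.51 (adjusted p = 0.880), and without normal replicate 3 it was 1.07 (adjusted p = 0.0516). Within the iUC samples, after the mean of each set of arrays was removed, the 3 probe sets correlated pairwise at 0.423, 0.459 and 0.737 over 18 samples, which share arrays and scaling.

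**Figure D2:**
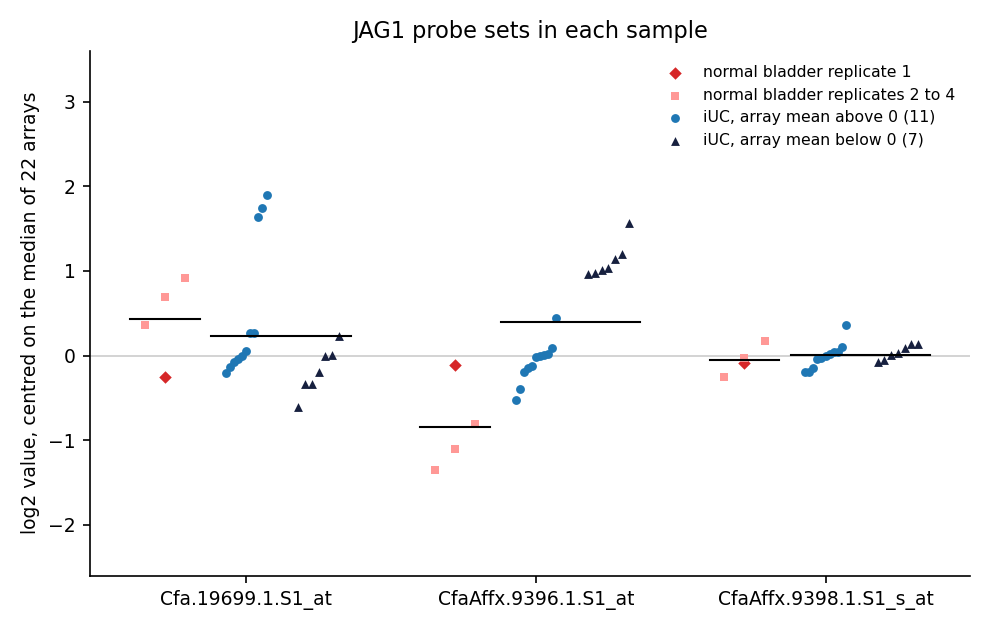
Centred log2 value of the 3 JAG1 probe sets in each sample, with marks as in the plot of all genes and group means as lines. CfaAffx.9396.1.S1_at splits the iUC arrays into 7 from 0.96 upwards and 11 up to 0.44, Cfa.19699.1.S1_at has its 3 highest iUC values among the 11, and CfaAffx.9398.1.S1_s_at stays between -0.25 and 0.36.

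Of the targets, HEYL passed the adjusted p and HEY1 did not, and the difference between them was not tested. HEYL is a repressor known from vascular smooth muscle, where NOTCH3 is known to induce it. It had the smallest adjusted p of the 9 genes. HEYL read -0.04, -0.78, -0.84 and -0.71 in normal replicates 1 to 4, and from -0.14 over 0.11 to 0.81 in iUC. All 18 iUC samples lay above normal replicates 2 to 4, and 13 lay above all normal samples. The difference was 0.79 (SE 0.17, 1.73-fold, adjusted p = 0.00136).

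HEYL also parted the iUC arrays. It lay between 0.25 and 0.81 in the 7 arrays of lower mean and between -0.14 and 0.15 in the 11, a split shown by 15.9% of all genes in that direction. Among the other measured targets HES2, HES4, HES5 and HES7 split the arrays in the same way, while HES6 and DTX1 did not. Without the 11 arrays HEYL was 1.12 higher in iUC (adjusted p = 9.68e-05), the only case among the alternatives in which 1 of the 9 genes rose (beside 7.16% of all genes there). Without the 7 arrays its difference was 0.58 (adjusted p = 0.00172).

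HEY1, a repressor of the same family that is active in endothelium and heart, had the smallest difference of the 9 genes. HEY1 read -0.02, -0.07, -0.27 and 0.12 in normal replicates 1 to 4, and from -0.14 over 0.00 to 0.32 in iUC. The difference was 0.10 (SE 0.08, 95% interval -0.06 to 0.27, adjusted p = 0.303), and 4 of 18 iUC samples lay above all normal samples.

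**Figure D3:**
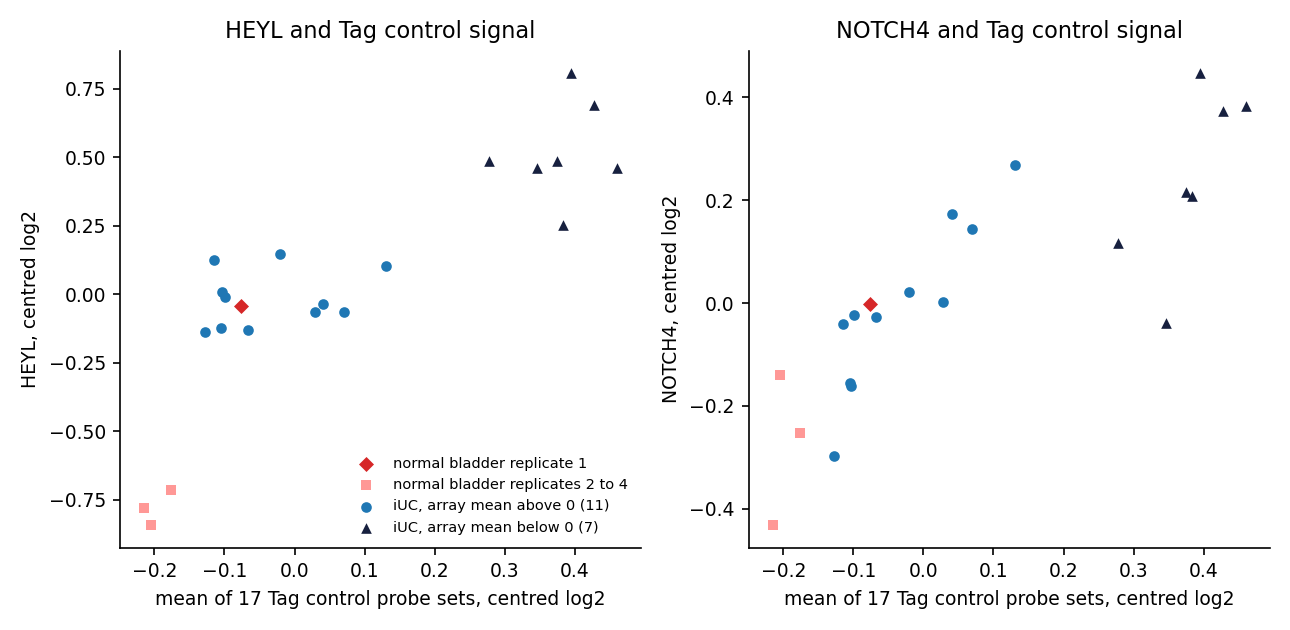
HEYL (left) and NOTCH4 (right), centred log2, against the mean of the 17 Tag control probe sets in each of 22 samples. The 7 iUC arrays with a mean below 0 have Tag means of 0.277 to 0.460 and the highest HEYL values, and normal replicates 2 to 4 have the lowest Tag means and the lowest HEYL values.

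The differences depended on which normal sample and which scaling stood behind them. With the label ending as a block, which sets normal replicate 1 alone against the iUC samples and takes it to vary as the others do, the difference was 0.05 for NOTCH1, -0.03 for NOTCH2, 0.09 for NOTCH3, 0.09 for NOTCH4, 0.37 for JAG1, 0.10 for JAG2, 0.54 for DLL4, 0.06 for HEY1 and 0.23 for HEYL. The JAG1 value (SE 0.30, adjusted p = 0.834) is a mean in which probe sets moved in opposite directions from the deposited comparison, with CfaAffx.9396.1.S1_at at 0.51 and Cfa.19699.1.S1_at at 0.49. None of the 9 passed the adjusted p in that fit, in which 0.119% of all genes did in that direction. When the mean of the Tag control probe sets was subtracted from each array, an analysis chosen after the data were seen, the median of all genes moved by -0.30. NOTCH3 then read -0.14, HEY1 -0.19 and NOTCH4 0.00. NOTCH2 read 0.07, JAG1 0.07 and JAG2 0.02, while NOTCH1 read 0.34, DLL4 0.46 and HEYL 0.49. HEYL alone passed the adjusted p there (0.00144, beside 5.76% of all genes), and it was also the only 1 that passed after quantile normalization (0.67, adjusted p = 0.0179, beside 5.75%).

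**Figure D4:**
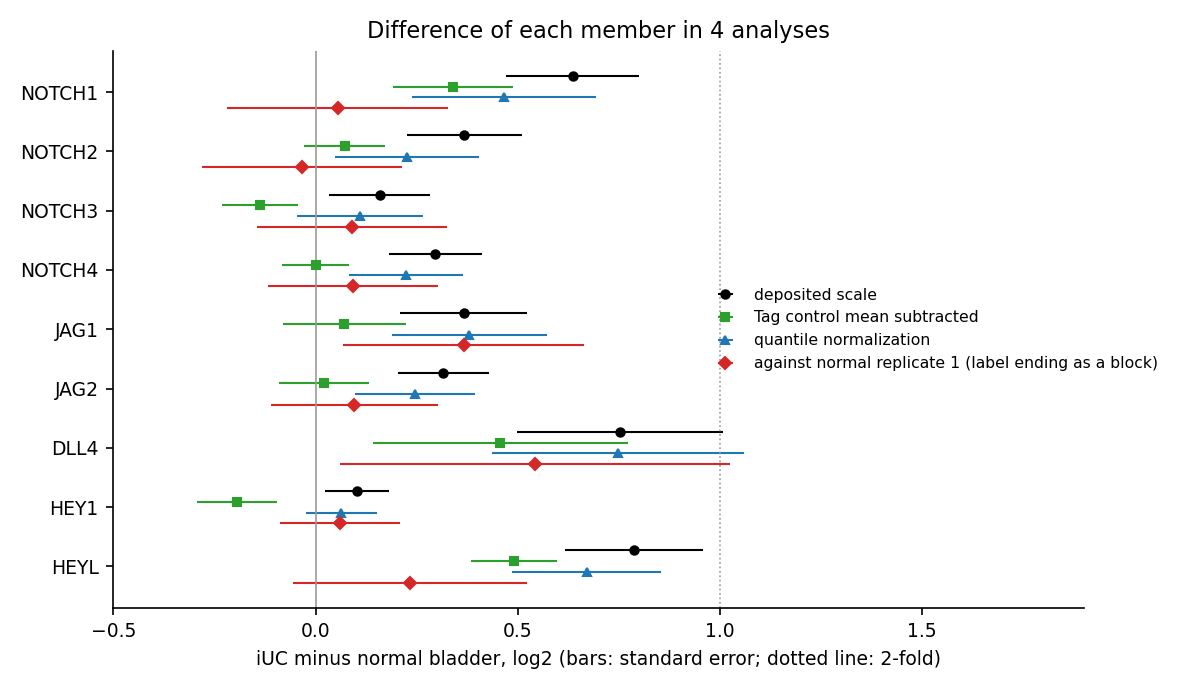
Difference between iUC and normal bladder (log2, bars are SE) of each gene on the deposited scale, after subtraction of the Tag control mean, after quantile normalization and against normal replicate 1. On the deposited scale all 9 are positive, from 0.10 to 0.79 and below the dotted line at 2-fold, and against normal replicate 1 they run from -0.03 to 0.54 with none past the adjusted p.

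Marker RNA of several cell types of the bladder differed between the groups. Of 18 smooth muscle markers 15 fell in iUC, with a median of -3.72, and their mean per sample lay between 2.40 and 4.17 in normal bladder and between -0.52 and 1.14 in iUC. Of 10 fibroblast markers 9 fell and 1 rose, with a median of -2.92. Of 18 measured endothelial markers 5 fell and 1 rose, with a median of -0.75, and their mean per sample lay between 0.13 and 1.03 in normal bladder and between -0.46 and 1.10 in iUC. Of 17 luminal urothelial markers 11 rose, with a median of 1.62. Among 14 leukocyte markers 3 fell (CD163, AIF1 and TYROBP), with a median of -0.35. None of 8 pericyte markers (median -0.24) or of 7 basal urothelial markers (median 0.07) rose or fell, and past the adjusted p alone KCNJ8 was lower among the former (-0.50) and TP63 (0.47) and CDH3 (0.33) were higher among the latter. In whole tissue, fewer cells of a type and less RNA per cell cannot be told apart. The part of tissue makeup in the NOTCH values was not tested.

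Beside these markers the genes known from the same cell type are given as values only. Exact permutation tests of each gene minus its marker mean were run but are not used. The reason is that a gene that does not change differs from any marker that falls. The mean of the smooth muscle markers differed by -3.49 between iUC and normal bladder, while NOTCH3 differed by 0.16 and HEYL by 0.79. Pericytes are the other cell type named above for NOTCH3 and HEYL. Their 8 markers had a median difference of -0.24, and none rose or fell. The mean of the endothelial markers differed by -0.53, while NOTCH4 differed by 0.30, DLL4 by 0.75 and HEY1 by 0.10. The mean of the basal urothelial markers differed by 0.12, while NOTCH1 differed by 0.64, JAG1 by 0.37 and JAG2 by 0.32.

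Within the iUC samples, 10 pairs of a gene with another or with a marker mean were correlated separately in the 11 and the 7 arrays, and 0 of these 20 relations passed adjustment. The lowest p was that of JAG1 with the basal markers in the 11 samples (Pearson r = 0.759, permutation p = 0.0049, adjusted 0.0980, Spearman rho = 0.727, permutation p = 0.0145, adjusted 0.226), and r was 0.52 without the 2 samples farthest from the median of the markers. In the 7 samples that pair gave r = 0.666 (exact permutation p = 0.0956, adjusted 0.319) and rho = 0.75 (exact permutation p = 0.0663, adjusted 0.305). JAG1 stands here for the mean of its 3 probe sets, which did not move alike. NOTCH3 with the smooth muscle markers gave r = -0.837 in the 7 samples (exact permutation p = 0.0427, adjusted 0.213) and -0.05 without 2 samples. NOTCH1 with the basal markers gave r = 0.637 in the 11 (permutation p = 0.0388, adjusted 0.213) and 0.06 without 2 samples. HEY1 with the endothelial markers gave rho = 0.655 in the 11 (permutation p = 0.0339, adjusted 0.226), with r = 0.346. NOTCH3 and HEYL correlated at 0.624 in the 11 samples (permutation p = 0.0328, adjusted 0.213, rho = 0.655, permutation p = 0.0332, adjusted 0.226, and r = 0.87 without 2 samples) and at 0.112 in the 7 (exact permutation p = 0.781, adjusted 0.914, rho = 0.429, exact permutation p = 0.354, adjusted 0.643).

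As a description, the 9 genes were also correlated with each other over the 18 iUC samples after the mean of each set of arrays was removed. The highest values were those of JAG2 with HEY1 (0.766), NOTCH4 with JAG2 (0.762) and NOTCH4 with HEY1 (0.715), 3 genes with an SD near that of the control probe sets. The targets HEY1 and HEYL gave 0.614. The lowest was that of NOTCH2 with DLL4 (-0.407). NOTCH3 and HEYL, receptor and target in vessel walls, gave 0.340. Over the same samples the genes most like each member were LRP1 (0.853) and TMPRSS6 (0.828) for NOTCH1, CAPN9 (0.885) and TPH2 (0.880) for NOTCH2, CAMSAP3 (0.873) and RHOT2 (0.869) for NOTCH3, and CHPF (0.917) and ARHGAP30 (0.907) for NOTCH4. For the ligands they were ADGRL1 (0.924) and MDFI (0.919) for JAG1 (mean of 3 probe sets), AMIGO3 (0.914) and PRSS38 (0.907) for JAG2, and IKBIP (0.799) and PTPRR (0.792) for DLL4. For the targets they were LGALS1 (0.865) and TTC34 (0.853) for HEY1 and TGFBR2 (0.887) and CRIP1 (0.845) for HEYL. These are the highest values among all genes over arrays that share their scaling, and none was tested.

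The rest of the pathway was measured in 49 of 61 listed genes. Of these 1 rose and 4 fell, 5 of 49 beside 3.68% of all genes that rose and 8.64% that fell. The median difference was 0.13, beside 0.08 for all genes. Past the adjusted p alone 13 were higher and 9 lower, beside 18.2% and 17.5% of all genes. None of 3 other ligands, 6 enzymes of receptor glycosylation, 11 proteins of trafficking and turnover or 6 other targets rose or fell.

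The gene that rose was NCSTN (nicastrin), the subunit of gamma-secretase that holds the substrate. NCSTN read -0.72, -1.05, -1.44 and -1.46 in normal replicates 1 to 4 and from -0.67 over 0.13 to 1.19 in iUC, and all 18 iUC samples lay above all normal samples, as in 3.22% of all genes. The difference was 1.39 (SE 0.28, 2.62-fold, adjusted p = 0.000795), and its 4 probe sets gave 0.84 to 2.00. The other measured members of the cleavage machinery were not called. FURIN stood at 0.83, past the adjusted p (0.000559) but below 2-fold. ADAM10 stood at 0.87 (adjusted p = 0.0823), APH1A at 0.29, APH1B at 0.12, PSEN2 at -0.37 and PSENEN at -0.47.

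The genes that fell were 2 of 8 measured in the nuclear complex and 2 of 8 among the corepressors, beside 8.64% of all genes. Their grouping by role was not tested. RBPJ, the DNA-binding partner of all 4 receptors, read 0.76, 0.76, 1.65 and 1.64 in normal replicates 1 to 4 and from -0.37 over -0.13 to 0.59 in iUC, without overlap, a pattern shown by 4.47% of all genes. The difference was -1.24 (SE 0.18, adjusted p = 2.36e-05), and its 3 probe sets gave -0.49, -1.44 and -1.78. KAT2B, an acetyltransferase that joins the active complex, read 1.06, 0.44, 2.48 and 2.40 in normal replicates 1 to 4 and from -0.36 over -0.11 to 0.71 in iUC, a difference of -1.61 (SE 0.25, adjusted p = 6.52e-05).

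The Mastermind genes did not fall with RBPJ. MAML1 stood at 0.07, MAML2 at 0.43 and MAML3 at 0.45, MAML2 and MAML3 past the adjusted p but below 2-fold. Among the corepressors TLE1, a Groucho protein recruited by HES factors, read 0.59, 1.34, 1.58 and 1.91 in normal replicates 1 to 4 and from -0.42 over -0.04 to 1.52 in iUC. The difference was -1.24 (SE 0.25, adjusted p = 0.000818), but its 2 probe sets gave -2.61 and 0.13. HDAC2, a histone deacetylase, read 0.12, 0.58, 0.90 and 0.85 in normal replicates 1 to 4 and from -1.74 over -0.20 to 0.62 in iUC, a difference of -1.04 (SE 0.37, adjusted p = 0.0335). HDAC2 lay between -1.74 and -0.90 in the 7 arrays and between -0.53 and 0.62 in the 11, a split in that direction shown by 12.8% of all genes.

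RBPJ and TLE1 stand in a list that the study drew up from these samples, so their fall is not independent evidence. None of the 5 passed with the label ending as a block, where NCSTN read 0.94, RBPJ -0.79, KAT2B -1.08, TLE1 -0.47 and HDAC2 -0.55. After quantile normalization NCSTN alone rose, at 1.27, and RBPJ read -0.81, KAT2B -0.98, TLE1 -0.76 and HDAC2 -0.65. Without the 7 arrays HDAC2 read -0.52, and without the 11 arrays NCSTN read 0.90. HDAC2 did not pass without normal replicate 2, 3 or 4 (adjusted p = 0.0696, 0.113 and 0.108), and without normal replicate 1 the count of pathway genes called was 13 in place of 5.

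**Figure D5:**
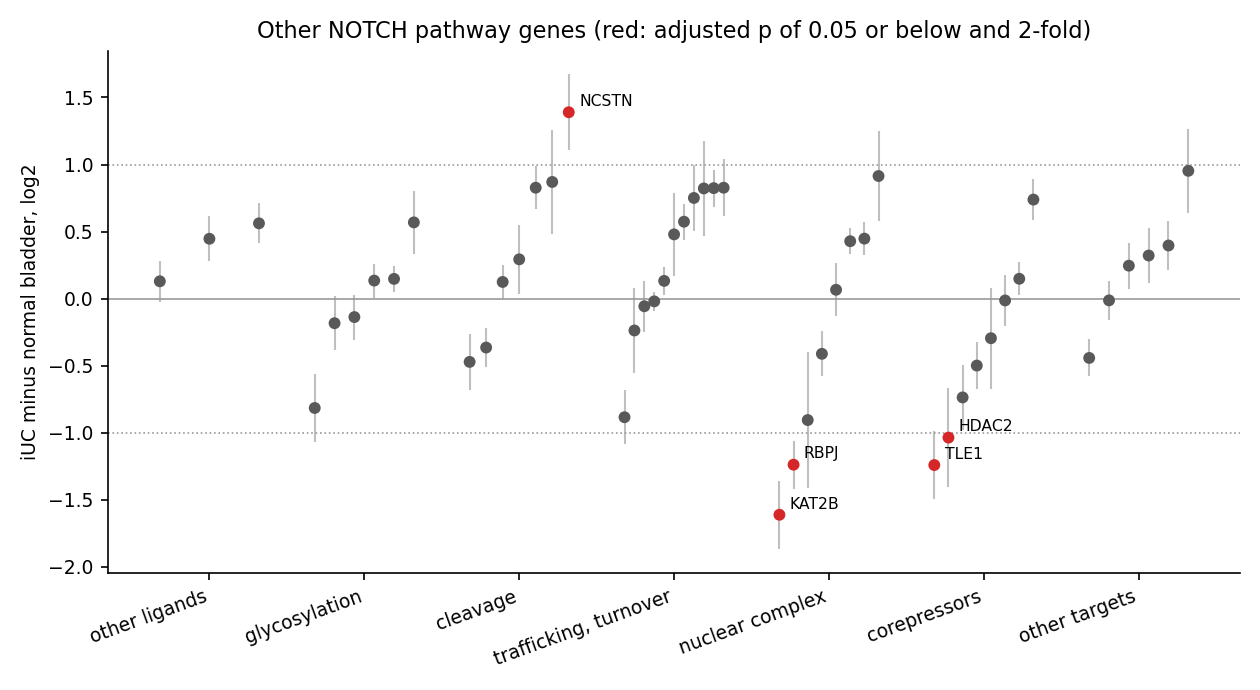
Difference between iUC and normal bladder (log2, bars are SE) of the 49 other pathway genes, grouped by role and ordered by size within a role, with the 5 that rose or fell in red. NCSTN at 1.39 lies above the upper dotted line of 2-fold, and RBPJ, KAT2B, TLE1 and HDAC2 lie below the lower one.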

How the data were processed

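Each of 18 iUC and 4 normal bladder samples had 1 Affymetrix Canine 2.0 array. The authors processed the arrays in GeneSpring GX, and the deposited values of 43035 probe sets are log2, centred by the authors on each probe set's median over the 22 arrays (largest median 5e-07). How arrays were normalized against each other was not found in the sources used here. After 111 controls were removed, 42924 probe sets were tested, 29254 of them naming 1 gene, and probe sets of the same gene were averaged. Groups came from the sample titles.

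Groups were compared by linear models in limma 3.58.1 under R 4.3.3 (lmFit, then eBayes) without covariates, adjusting p-values by Benjamini-Hochberg over all 15115 genes or all probe sets. The code was tested on simulated data. The members, pathway lists, marker lists and pairs were chosen with earlier results of these data known. The text names all members, called pathway genes and, for each member, the 2 genes of highest correlation. The Tag control mean and each gene minus its marker mean were tested by exact permutation, and correlations with 100000 permutations or exactly for 7 samples. Of the pairs planned, 2 with HES1 were not run. The number of arrays limits the precision. Alternatives were array weights, a plain unpaired t-test, the median of probe sets, and quantile or 75th percentile scaling. Others were a block for the replicate number or for the label ending, and normal replicates 3 and 4 averaged to 1 sample. Control signal was also subtracted, and samples were left out.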

Additional observations from a re-analysis of the deposited data

Results flagged for a closer look

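HEYL in normal bladder had a value far from the others: normal replicate 1 read -0.04 while replicates 2, 3 and 4 read -0.78, -0.84 and -0.71. The gap to the nearest sample was 0.838 of the whole range of the 4, which is above the 95% critical value of Dixon's test for 4 samples. The normal samples of 14 genes were examined in this way, and chance alone gives about 1 such value in 20 groups. The difference of HEYL was 0.97 without that sample and 0.23 against that sample alone.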

How the results depend on the processing

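With arrays rather than read depth, 4 normal samples set the limit: leaving out each in turn gave 2 to 6 genes past the adjusted p in place of 6 (6 without replicate 1, and 2 without replicate 2, 3 or 4), 0 member genes called each time, 0 to 1 probe sets (0 without replicate 3), 4 to 13 pathway genes in place of 5 (13 without replicate 1) and 1265 to 2211 of all genes in place of 1862. The replicate numbers did not pair the samples (r from -0.166 to 0.131). With the number as a block the difference rests on replicates 1 to 4 of both groups, since no other iUC number has a normal sample. There 0 genes passed the adjusted p, and 0 probe sets, 2 pathway genes (NCSTN and RBPJ) and 564 of all genes were called. Blocking on the label ending gave 0, 0, 1 (MFNG) and 404. After quantile normalization they were 1, 0, 1 and 726. Without the 7 arrays 3 genes passed the adjusted p (NOTCH1, DLL4 and HEYL), with 0 probe sets, 8 pathway genes and 1692 of all genes called. Without the 11 arrays 1 member gene (HEYL), 2 probe sets, 12 pathway genes and 3705 of all genes were called. With the Tag control mean subtracted, chosen after the data were seen, 1 gene passed the adjusted p. There 0 probe sets, 8 pathway genes and 2214 of all genes were called. Array weights gave 8 pathway genes and 2409 of all genes. Of the 9 genes 8 passed the adjusted p with array weights, with scaling to the 75th percentile and without the 11 arrays. Normal replicates 3 and 4 as 1 sample gave 2 genes past the adjusted p (NOTCH1 and HEYL), with 1291 of all genes called. Scaling to the 75th percentile moved the median of all genes by 0.12. Of all calls 29.9% were higher in iUC, beside 40.6% after quantile normalization, 42.8% after 75th percentile scaling, 44.2% with array weights, 46.7% without the 7 arrays, 10.4% after Tag subtraction and 3.71% when the label ending was blocked. Values changed sign for NOTCH2 (-0.034, label ending), NOTCH3 (-0.14, Tag), HEY1 (-0.19, Tag), CfaAffx.9398.1.S1_s_at (-0.23, Tag, and from -0.0056 to 0.13 with normal samples left out, the lowest without replicate 4) and Cfa.19699.1.S1_at (0.064 after quantile normalization, 0.49 with the label ending and 0.063 without the 7 arrays). The cause was not tested.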
